A study of Mus musculus with 22 samples.

Results

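The active mark H3K27ac and the repressive mark H3K9me3 were compared within a single induced pluripotent stem (iPS) cell line, C3, through the regions where both libraries of a mark held a peak. On chromosomes 1 to 19 these numbered 71236 for H3K27ac and 32862 for H3K9me3, together 104098 of the 300889 such regions found over the 3 lines of the series. A region is the merged stretch of overlapping peaks of the 2 libraries of a mark, so the smaller replicate of a mark limits how many there can be. C3 cells were made from C57BL/6 mouse embryonic fibroblasts transduced with Sox2, Klf4 and c-Myc together with the zinc-finger artificial transcription factors ZFATF1, ZFATF2 and ZFATF4. In the C2 line ZFATF3 takes the place of ZFATF4, and in the OSKM line Oct4 takes the place of the artificial factors. All 3 lines carry the Oct4-MerCreMer; Tomato/GFP reporter, were treated with 4-hydroxytamoxifen at 100 nM and grew in medium with leukemia inhibitory factor on gelatin. Each line and mark has 2 libraries of chromatin immunoprecipitation with sequencing (ChIP-seq), from cells fixed with 1.5% formaldehyde. Whether a line is a single clone, and whether replicates came from separate cultures, is not given in the sources used here, so p-values measure only the spread between these libraries.

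H3K27ac is placed by the acetyltransferases p300 and CBP at active promoters and enhancers. H3K9me3 is placed by enzymes such as Setdb1 and Suv39h, is bound by HP1 proteins, and in pluripotent cells is known at retrotransposons, at clusters of zinc-finger genes and at the silent copy of imprinting control regions. At these last sites the DNA-binding protein Zfp57 recruits Trim28 and Setdb1 to a methylated hexamer, TGCCGC. The marks sit on different residues of the histone H3 tail and are mostly found apart.

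The C3 libraries matched their label as pluripotent cells: 13 of 13 pluripotency markers had an H3K27ac region within 2500 bp, beside 72.0% of all protein-coding genes. Among markers of other cell types, 3 of 12 fibroblast markers (Thy1, Twist1 and Prrx1) had an H3K27ac region, at fold enrichments between 3.22 and 5.02, and Col1a1, Col1a2, Col3a1, Dcn and Postn had none. All 8 primitive endoderm markers had one, against 7 in C2 and 6 in OSKM, and 3 of 5 trophoblast markers did. The defining endoderm gene Sox17 had 9.46- and 6.51-fold enrichment over the local background in C3 and no region in C2 or OSKM. These values are fold enrichments of the highest peak in replicates 1 and 2, as the authors' peak caller gave them. The part of endoderm-like cells in the H3K27ac results was not tested. After filtering, the H3K27ac libraries held 32802769 and 33760862 tags, and the H3K9me3 libraries 44426255 and 34550520. The H3K9me3 replicates differed most: 42.7% of the 84462 peaks of replicate 1 and 95.0% of the 51791 peaks of replicate 2 lay in regions of both, against 75.2% and 81.3% for H3K27ac. Libraries of the 2 marks with the same number were called against the same input library, since their headers give the same number of input tags.

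Promoters of known genes are shown as examples of a transcription start site inside a region of only H3K27ac, only H3K9me3 or both; they were picked for their genes and do not stand for the base composition of their classes. Each is given 5′ to 3′ on the strand of its gene, 250 bases before the start site and 50 after it, from RefSeq (GRCm38.p6), with every CpG dinucleotide in capitals. Nanog (a core pluripotency factor, chr6:122707239-122707538, plus strand) and Zfp936 (a zinc-finger gene, chr7:43177340-43177639, plus) had H3K27ac only. Plagl1 (an imprinted zinc-finger factor, chr10:13090582-13090881, plus), Nnat (imprinted neuronatin, chr2:157559828-157560127, plus) and Brdt (a testis-specific bromodomain protein, chr5:107330944-107331243, plus) had H3K9me3 only. Mest (imprinted, expressed from the paternal copy, chr6:30737800-30738099, plus) and Pou5f1 (the gene of Oct4, chr17:35505782-35506081, plus) had both.
Nanog: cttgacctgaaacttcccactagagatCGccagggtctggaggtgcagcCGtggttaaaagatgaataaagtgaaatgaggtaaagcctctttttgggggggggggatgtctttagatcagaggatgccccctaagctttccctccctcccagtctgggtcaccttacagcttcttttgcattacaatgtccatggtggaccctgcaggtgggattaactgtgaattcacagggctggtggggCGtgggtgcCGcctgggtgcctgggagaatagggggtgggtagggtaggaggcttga
Zfp936: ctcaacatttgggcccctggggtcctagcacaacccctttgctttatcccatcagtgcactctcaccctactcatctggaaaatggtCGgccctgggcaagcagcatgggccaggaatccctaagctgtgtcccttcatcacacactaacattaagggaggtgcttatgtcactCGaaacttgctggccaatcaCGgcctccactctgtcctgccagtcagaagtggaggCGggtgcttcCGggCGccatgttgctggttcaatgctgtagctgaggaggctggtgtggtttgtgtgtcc
Plagl1: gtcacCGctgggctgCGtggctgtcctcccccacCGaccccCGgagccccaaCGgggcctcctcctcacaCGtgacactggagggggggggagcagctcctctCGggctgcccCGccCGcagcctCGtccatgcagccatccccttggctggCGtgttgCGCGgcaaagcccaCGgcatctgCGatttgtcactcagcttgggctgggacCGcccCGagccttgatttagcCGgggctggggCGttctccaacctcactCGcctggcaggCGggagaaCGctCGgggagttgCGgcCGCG
Nnat: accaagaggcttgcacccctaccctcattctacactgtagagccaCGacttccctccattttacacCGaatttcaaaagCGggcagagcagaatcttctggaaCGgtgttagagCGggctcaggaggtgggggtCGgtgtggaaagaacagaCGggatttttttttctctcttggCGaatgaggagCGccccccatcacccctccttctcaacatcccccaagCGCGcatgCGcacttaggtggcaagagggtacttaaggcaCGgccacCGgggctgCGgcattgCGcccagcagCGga
Brdt: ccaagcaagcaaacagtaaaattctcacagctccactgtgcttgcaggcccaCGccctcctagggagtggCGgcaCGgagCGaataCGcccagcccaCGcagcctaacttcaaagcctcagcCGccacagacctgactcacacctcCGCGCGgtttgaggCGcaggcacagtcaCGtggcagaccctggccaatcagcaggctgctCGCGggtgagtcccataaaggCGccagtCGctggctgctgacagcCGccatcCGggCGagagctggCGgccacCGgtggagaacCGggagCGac
Mest: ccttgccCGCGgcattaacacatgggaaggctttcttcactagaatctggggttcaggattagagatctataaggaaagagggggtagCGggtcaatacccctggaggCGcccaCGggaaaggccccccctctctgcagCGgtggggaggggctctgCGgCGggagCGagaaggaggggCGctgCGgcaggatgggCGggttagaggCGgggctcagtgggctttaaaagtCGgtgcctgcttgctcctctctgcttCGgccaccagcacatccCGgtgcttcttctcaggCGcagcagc
Pou5f1: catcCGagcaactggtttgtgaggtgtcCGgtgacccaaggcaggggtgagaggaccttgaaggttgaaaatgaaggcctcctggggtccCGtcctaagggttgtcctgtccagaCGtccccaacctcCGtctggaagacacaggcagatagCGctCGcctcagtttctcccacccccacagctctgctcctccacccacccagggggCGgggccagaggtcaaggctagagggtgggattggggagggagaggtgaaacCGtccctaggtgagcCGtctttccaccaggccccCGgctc
Nanog and Zfp936 hold 4 and 6 CpGs in these 300 bases, Plagl1, Nnat and Brdt hold 26, 17 and 23, and Mest and Pou5f1 hold 17 and 11. TGCCGC, read on either strand, occurs once each in Nanog, Plagl1, Nnat and Brdt, at 2 places in Mest, and not in the other two.

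How far each mark lay from genes set them apart in every library. Of the H3K27ac peaks in C3 regions, 65.1% in replicate 1 and 64.5% in replicate 2 overlapped a gene, against 29.6% and 27.97% of the H3K9me3 peaks, while genes covered 48.3% of the span of the chromosomes. H3K27ac thus overlapped genes more often than their share of the span in both libraries, and H3K9me3 less often. The means were 64.8% ± 0.392 and 28.8% ± 1.12 (SD, n = 2 each), a difference of 36.1 percentage points (exact permutation test over libraries, two-sided, p = 0.333). With 2 libraries against 2 no smaller p than 0.333 can be reached, so complete separation of the libraries is the most this design can show. Peaks over 50 kb from any gene made up 3.90% and 3.95% of the H3K27ac peaks, against 19.3% and 19.3% of the H3K9me3 peaks, a difference of -15.3 points (exact permutation p = 0.333). Without genes of predicted or uncharacterised symbols that difference was -29.8 points; the remaining genes covered 40.1% of the span. Within 1 kb of a start site lay 21.2% and 20.5% of the H3K27ac peaks, against 1.67% and 1.35% of the H3K9me3 peaks (difference 19.3 points, exact permutation p = 0.333).

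**Figure D1:**
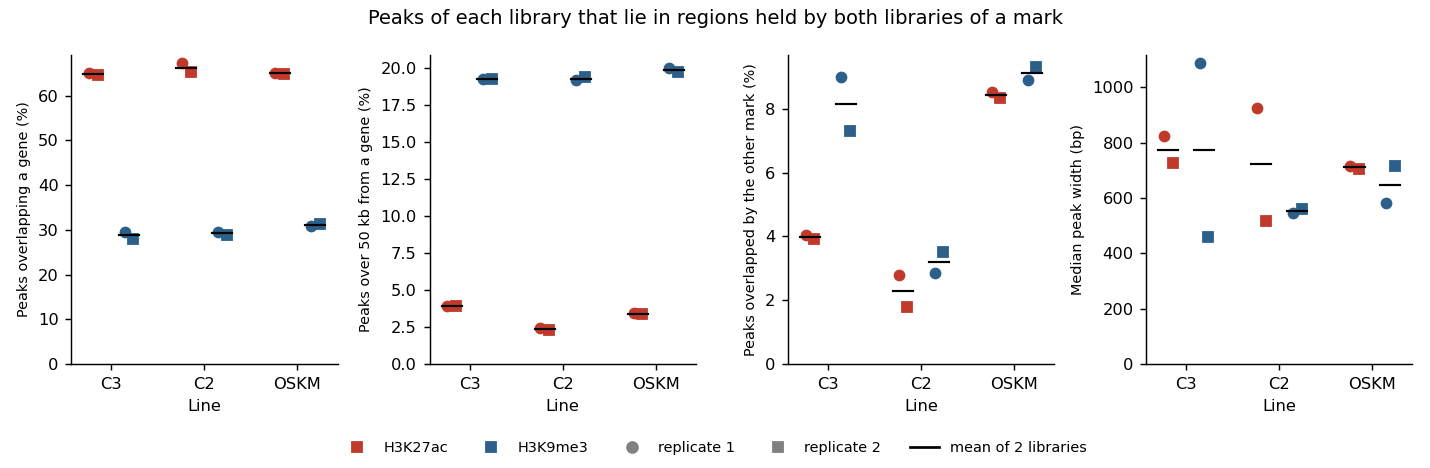
Share of peaks overlapping a gene, share over 50 kb from a gene, share overlapped by the other mark (all in percent) and median peak width (bp), for each library of the lines C3, C2 and OSKM, H3K27ac left of H3K9me3. In C3 the H3K27ac libraries sit at 65.1% and 64.5% in genes, far above the H3K9me3 libraries at 29.6% and 27.97%, whereas the widths of the marks overlap.

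Over whole regions the same order held. Of the H3K27ac regions 46757 (65.6%) overlapped a gene and 1178 (1.65%) lay over 100 kb away, against 9806 (29.8%) and 3101 (9.44%) of the H3K9me3 regions. The class from 10 to 50 kb held 11.97% of the H3K27ac regions and 28.6% of the H3K9me3 regions. H3K9me3 regions over 100 kb from a gene had median enrichments of 5.85 and 4.66 in replicates 1 and 2, against 5.64 and 4.56 for those overlapping a gene. For H3K27ac the same medians were 6.32 and 4.58 over 100 kb away and 6.29 and 4.95 in genes. The lines C2 and OSKM gave differences between the marks of 37.0 and 33.9 points for overlap with a gene, beside 36.1 in C3.

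**Figure D2:**
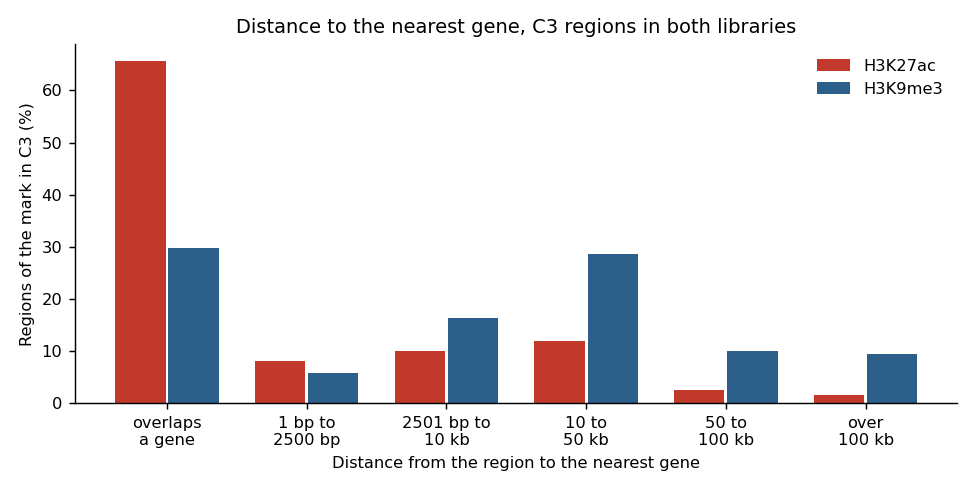
Percentage of the C3 regions of each mark by distance to the nearest gene, H3K27ac left of H3K9me3 in each class. H3K27ac is concentrated in the class that overlaps a gene (65.6%, against 29.8% for H3K9me3), and H3K9me3 is the higher of the marks in every class beyond 2500 bp.

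Median peak width did not separate the marks, though wide merged regions made up a larger share of H3K9me3. The H3K9me3 regions held 36099 peaks of replicate 1 and 49195 of replicate 2, so replicate 2 was called in more pieces. The median peak was 825 and 725 bp wide in the H3K27ac libraries, against 1087 and 460 bp in the H3K9me3 libraries, whose 2 values lie on either side of both H3K27ac values. The difference of means was 1.5 bp (exact permutation p = 1). Median fold enrichment was 5.69 and 4.57 for H3K27ac and 5.61 and 4.31 for H3K9me3, a difference of 0.174 (exact permutation p = 0.667), with replicate 1 above replicate 2 in both marks. Merged regions had a median of 1064 bp for H3K27ac and 1241 bp for H3K9me3. Regions of 5 kb or more made up 3.595% of the H3K27ac regions (2561) and 8.22% of the H3K9me3 regions (2700), and those of 10 kb or more numbered 383 and 298. In all, H3K27ac regions covered 110.7 Mb and H3K9me3 regions 63.3 Mb, or 4.50% and 2.57% of the span.

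The 8 widest H3K27ac regions all had a gene within 2500 bp, as did 73.8% of all H3K27ac regions. The longest, 41153 bp at chr15:100241298-100282450, overlapped Atf1, a CREB-family transcription factor, and Tmprss12, with enrichments of 13.6 and 12.7. The next, 33858 bp, covered Sall1, a zinc-finger factor of pluripotent cells (26.3 and 12.8). Others among the 8 widest lay at Plekha4 and Bcat2, Etl4, Tns3 and Plpp3. The highest mean enrichment, 38.3 and 16.3, belonged to a 6466 bp region at Dnmt3l, the cofactor of de novo DNA methylation, and its neighbour Aire. Zc3h4, Morf4l1, Mcm2, which is part of the replicative helicase, and Cdk4, a cell cycle kinase, were also among the 8 highest, as were Epc1, Zfp407 and a region 1478 bp from Platr29.

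Of the 8 widest H3K9me3 regions, 5 had no gene within 2500 bp, and of all H3K9me3 regions only 35.7% had a gene that near. The longest, 23332 bp at chr10:23855722-23879053, overlapped Vnn3, a vanin, with enrichments of 16.8 and 7.497. In replicate 2 it was called as 10 separate peaks and in replicate 1 as 2. Vmn2r35, a vomeronasal receptor (19517 bp, 7.73 and 10.7), and Flg2, a filaggrin-family gene of the skin (19062 bp, 16.6 and 11.5), held the other two at genes. The highest mean enrichment, 20.5 and 11.95, was at Csmd1, a large transmembrane gene. Slco1a6, an organic anion transporter, was also among the 8 highest, with 18.6 and 12.5.

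Regions of a mark also came in runs with gaps under 10 kb. Such runs held 80.2% of the H3K27ac regions and 56.4% of the H3K9me3 regions, and 51 runs of H3K27ac but 2 of H3K9me3 spanned over 100 kb. The longest H3K27ac run, 221.8 kb at chr7:80048831-80270609, ran from Zfp710 over Idh2, Sema4b and Cib1 to Vps33b with 48 regions over 45.6% of its bases. The longest H3K9me3 run, 113.1 kb at chr10:83374076-83487140, held only the predicted gene Gm8270, and its 23 regions covered 86.3% of its bases. The second lay on chromosome 13 over a row of Vmn1r pseudogenes (105.4 kb, 38.2% covered).

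At the scale of 1 Mb the marks differed in how they went with gene number. Over 2394 bins, the number of H3K27ac regions went with the number of genes (Spearman 0.72), the number of H3K9me3 regions did not (-0.07), and the marks were weakly opposed (-0.20). Bins are neighbours on the same chromosomes and share mappability and input, so these are descriptions. The 599 bins with most H3K27ac regions had medians of 61 H3K27ac and 8 H3K9me3 regions, and the 599 with fewest had 5 and 13. The bin with most H3K9me3, chr7:11000001-12000000, held 5 H3K27ac and 78 H3K9me3 regions and contains the Zscan4 genes, which are known from 2-cell embryos, and a row of Vmn1r receptor genes. The zinc-finger cluster at chr4:147000001-148000000 (Zfp978, Zfp982, Zfp985 and others) was high in both, with 58 H3K27ac and 77 H3K9me3 regions. So was chr13:66000001-67000000, with 95 H3K27ac and 76 H3K9me3 regions. Chromosome 11 had the highest ratio of H3K27ac to H3K9me3 regions at 4.32 (5157 against 1195), and chromosome 3 the lowest at 1.50 (3628 against 2419).

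Start sites lay far more often in H3K27ac than in H3K9me3 regions. Of 31396 annotated start sites of 25748 genes, none of them on chromosome 18, 11438 (36.4%) lay inside an H3K27ac region and 293 (0.933%) inside an H3K9me3 region. Regions of both covered 26 start sites (0.0828%) of 25 genes. The CpG count of the 300-base promoter had a median of 19 (quartiles 10 and 27) with H3K27ac only, 11.5 (5 and 17) with both, 5 (2 and 10) with H3K9me3 only and 4 (2 and 10) with neither. The printed promoters are not typical of their classes: Plagl1, Nnat and Brdt, with 26, 17 and 23 CpGs, lie above the upper quartile of promoters with H3K9me3 only, and Nanog and Zfp936, with 4 and 6, below the lower quartile of those with H3K27ac only. TGCCGC on either strand was found in 17.2% of promoters with H3K27ac only, 15.4% with both, 10.9% with H3K9me3 only and 8.37% with neither, against 11.6% of all. The hexamer itself holds a CpG: among promoters with at least 10 CpGs the shares were 20.7%, 23.5% (of 17 promoters), 26.5% (of 68) and 24.98%. A match is a description and not a bound site.

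**Figure D3:**
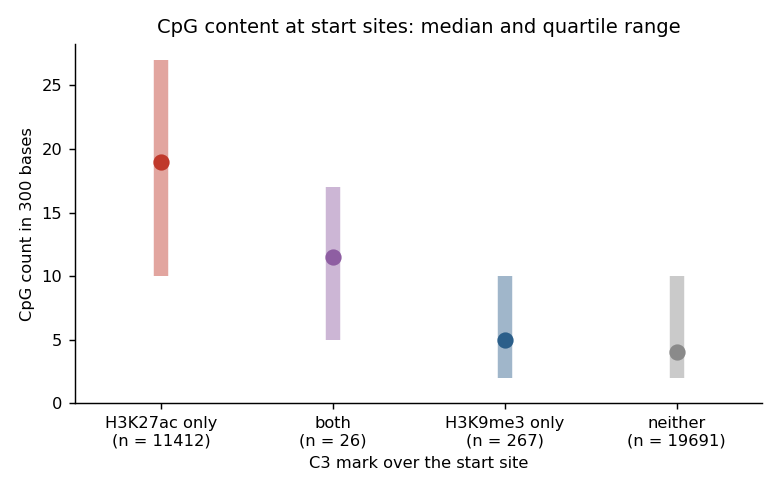
Number of CpG dinucleotides in the 300 bases around start sites, by the C3 mark that covers the start site. Points are medians and bars run from the lower to the upper quartile; H3K27ac-only start sites have a median of 19, those with both marks 11.5, H3K9me3-only start sites 5 and unmarked ones 4.

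The start sites under both marks belonged to few known genes. Of the 26, 8 were at protein-coding genes and 18 at long noncoding RNAs. At Mest the H3K27ac region (chr6:30738033-30740396, 11.2- and 6.08-fold) and the H3K9me3 region (chr6:30736202-30738401, 6.03- and 4.12-fold) met at the promoter printed above, with the H3K27ac region reaching into the gene and the H3K9me3 region away from it. Zrsr1, a paternally expressed gene that lies inside an intron of Commd1, shared an H3K27ac region of 2404 bp (11.1- and 8.81-fold) with Commd1, and H3K9me3 regions of 1201 and 509 bp lay over the start sites of Zrsr1 and Commd1. For the next 2 genes the values are the highest within 2500 bp of the gene, which need not be those over the start site. Tex12, a synaptonemal complex gene, had 5.01- and 4.84-fold H3K27ac and 5.85- and 4.62-fold H3K9me3. Akr1c13, an aldo-keto reductase, had 5.41- and 3.39-fold H3K27ac and 3.25- and 3.37-fold H3K9me3.

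At Pou5f1 an H3K9me3 region of 529 bp lay over the start site inside an H3K27ac region of 8570 bp. Pileups there were high for both marks, at 263 and 192 fragments for H3K27ac and 199 and 110 for H3K9me3, while the enrichments were 5.96 and 3.99 for H3K27ac and 4.07 and 2.87 for H3K9me3. At Nanog, H3K27ac pileups of 189 and 104 came with enrichments of 18.6 and 10.9, and no H3K9me3 region was found. The local background at Pou5f1, against which enrichment is computed, was therefore higher than at Nanog; its part in the calls was not tested. Regions of H3K9me3 at Pou5f1 numbered 1 in C2 and 3 in OSKM.

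Across all 47042 genes, 23370 (49.7%) had an H3K27ac region within 2500 bp of their extent, 6925 (14.7%) an H3K9me3 region and 4005 (8.51%) both. Of the 20665 protein-coding genes these were 14884 (72.0%), 3540 (17.1%) and 2724 (13.2%). With every peak of H3K9me3 replicate 1 taken as a region, without replicate 2, 11403 genes had H3K9me3 and 6528 both. Among genes with H3K9me3, 57.8% also had H3K27ac, beside 49.7% of all genes. The share was 77.0% for protein-coding genes, 49.6% for long noncoding RNAs and 21.1% for pseudogenes. With or without H3K9me3, 72.0%, 46.0% and 16.6% of these kinds of gene had H3K27ac. Having both went with gene length: 2.00% of protein-coding genes under 10 kb, 9.20% of those from 10 to 50 kb, 29.3% from 50 to 200 kb and 71.6% of those of 200 kb or more had both. Each mark by itself also rose with length. In the same order H3K27ac was at 50.6%, 80.5%, 89.0% and 93.1% of the genes, and H3K9me3 at 5.79%, 13.1%, 33.5% and 76.0%. Whether the marks met in genes more or less often than these single shares give was not tested. The marks lay on shared bases in 1128 of the 4005 genes with both. Of the 677 genes of 200 kb or more with both marks, 233 had a stretch where the regions overlapped, and of the 147 under 10 kb, 49 did.

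**Figure D4:**
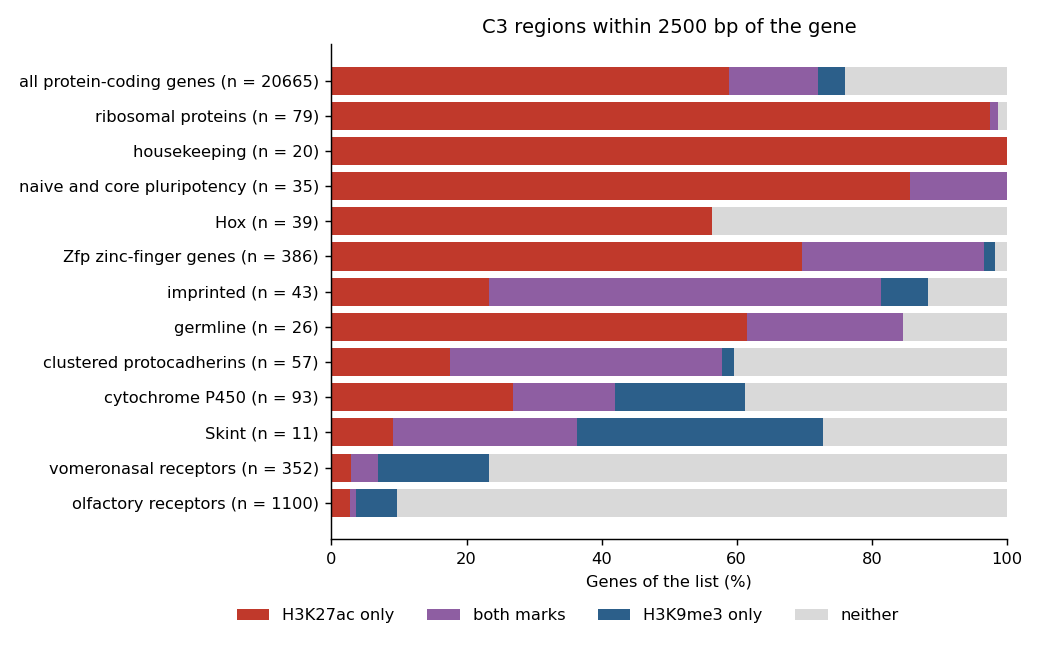
Share of genes in each list (percent) with a C3 region of H3K27ac only, both marks, H3K9me3 only or neither within 2500 bp. Ribosomal, housekeeping and pluripotency genes are almost wholly H3K27ac, imprinted genes have the largest share with both among the lists drawn (58.1%), and receptor genes mostly carry neither.

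Genes that every cell uses carried H3K27ac without H3K9me3. All 20 housekeeping genes had H3K27ac and none had H3K9me3, against 72.0% and 17.1% of protein-coding genes. Median lengths were 15719 bp for housekeeping, 3183 bp for ribosomal protein, 7798 bp for complex I and 12362.5 bp for proteasome genes. Of protein-coding genes under 10 kb 50.6% had H3K27ac and 5.79% H3K9me3, and of those from 10 to 50 kb 80.5% and 13.1%. Actb, the gene of cytoskeletal actin, had enrichments of 24.0 and 11.7, and Gapdh, a glycolytic enzyme, 16.9 and 11.96. Of 79 ribosomal protein genes 78 had H3K27ac and 1 had H3K9me3, Rpl39l, a paralogue with known expression in testis, whose 4 H3K9me3 regions covered 4420 bases (8.55- and 6.48-fold). The complex I genes of the respiratory chain gave 35 of 35 with H3K27ac and 1 with H3K9me3, Ndufs4. The proteasome genes gave 37 and 1 of 38, the last being Psma1.

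In the lists of lineage genes and of the acetylation machinery, H3K9me3 was found at between 4.08% (keratins) and 16.7% (acetylation machinery) of the members. It was found at 3.45% of histone genes, and at 17.1% of protein-coding genes of any length. Of protein-coding genes under 10 kb 5.79% had it, and of those from 10 to 50 kb 13.1%. Median lengths were 7422 bp for keratins, 487.5 bp for histone genes, 4800 bp for neuroectoderm genes and 36785.5 bp for the acetylation machinery. The 17.1% is thus not a share for genes of like length. All 18 genes of the H3K27 acetylation machinery had H3K27ac and 3 had H3K9me3, among them Brd3, a reader of acetylated histones, with 10914 bases of H3K27ac and 5018 of H3K9me3. Of 16 genes of the formative and primed states 15 had H3K27ac and 2 H3K9me3; Etv5, an ETS factor, had 42131 bases of H3K27ac and 2553 of H3K9me3. Of 20 endoderm genes 17 had H3K27ac and 2 H3K9me3, led by Gata4 with 13 H3K27ac regions over 24582 bases (12.4- and 6.69-fold). Of 13 trophoblast genes 9 had H3K27ac and 1 H3K9me3, and Tead4, a transcription factor of the trophectoderm, had 34006 bases of H3K27ac. Of 30 fibroblast and mesenchymal genes 17 had H3K27ac (56.7%, beside 72.0% of protein-coding genes) and 3 H3K9me3. Among them Zeb1, a repressor of epithelial genes, had 3458 bases of H3K27ac and 5770 of H3K9me3, and Lum and Pdgfrb had no H3K27ac and 1362 and 660 bases of H3K9me3. Of 49 keratin genes 12 had H3K27ac and 2 H3K9me3, and of 58 histone genes 56 and 2.

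The 35 genes of naive and core pluripotency all had H3K27ac, and 5 had H3K9me3 (14.3%, beside 17.1% of protein-coding genes). Their median length was 9240 bp. Of protein-coding genes under 10 kb 5.79% had H3K9me3, and of those from 10 to 50 kb 13.1%, so 14.3% is not low for this length. Esrrb, a nuclear receptor of the naive state, had 22 H3K27ac regions over 69080 bases (22.0- and 12.6-fold) and 2 H3K9me3 regions over 1719 bases (5.57- and 3.24-fold). Tet2, a dioxygenase of 5-methylcytosine, had 8 H3K27ac regions over 37942 bases and no H3K9me3, and Tfcp2l1, a naive-state factor, 10 over 23036 bases and none. Rif1, a replication timing factor, had H3K27ac over 5535 bases (23.4- and 9.28-fold) and an H3K9me3 region of 2341 bases (6.70- and 8.05-fold). Myc, Jarid2 and Pou5f1 were the other three with H3K9me3, over 814, 847 and 529 bases. Of the 24 genes of the H3K9 methylation machinery, all had H3K27ac and 5 had H3K9me3: Atf7ip, Kdm4c, Pphln1, Cbx3 and Zfp445. Zfp445, itself a zinc-finger protein known to act at imprinted regions, had 3554 bases of H3K27ac (11.4- and 6.21-fold) and 8259 of H3K9me3 (7.53- and 7.22-fold).

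Zinc-finger genes of the Zfp series mostly carried H3K27ac. Those with both marks that were profiled along their length had H3K27ac more at their 5′ end and H3K9me3 more at their 3′ end on average. Most are Krüppel-type DNA-binding proteins, many of which repress retrotransposons. Of 386 such genes 373 had H3K27ac (96.6%), 110 had H3K9me3 (28.5%) and 104 had both (26.9%), against 72.0%, 17.1% and 13.2% of protein-coding genes, at a similar median length (18013.5 bp for the list and 17491 bp for protein-coding genes). Of the 386, 269 had H3K27ac only, and 19 of the 104 with both had a stretch where the regions overlapped. Start sites with H3K27ac belonged to 282 of the 324 listed genes with an annotated start site, and an H3K9me3 start site to 1, Zfp872. Zfp978 had 16 H3K27ac regions over 37883 bases (12.8- and 7.26-fold) and 21 H3K9me3 regions over 56308 bases (12.99- and 8.16-fold). Zfp993 had 17 H3K27ac regions over 38590 bases and 20 H3K9me3 regions over 38601 bases, with no base of overlap. The annotated extents of Zfp978 and Zfp993 are 267146 and 478623 bp, far above the median of the list. Zfp936, whose promoter is printed above, had 6 H3K27ac regions over 13750 bases (17.99- and 8.15-fold) and 13 H3K9me3 regions over 25833 bases (9.51- and 7.77-fold). Zfp951 had 2705 bases of H3K27ac and 28266 of H3K9me3.

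The position along these genes was read as a mean over genes, by cutting genes of 5 kb or more into 10 equal stretches. Not all genes of that length were profiled. Protein-coding genes with both marks numbered 791 from 10 to 50 kb, 1109 from 50 to 200 kb and 677 of 200 kb or more, beside 2086 profiled. Reading from 5′ to 3′ needs the strand, which was lacking for some genes, Zfp978 and Zfp934 among them. In the 83 Zfp genes with both marks, H3K27ac regions covered 45.9% of the bases in the stretch at the 5′ end and 3.5% in the stretch at the 3′ end, and H3K9me3 regions covered 3.02% and 24.9%. In the 2086 protein-coding genes with both marks, which include them, H3K27ac covered 21.7% and 4.73% and H3K9me3 2.28% and 4.88% of the same stretches. Genes chosen for having both marks hold more H3K9me3 through that choice. In the 310 profiled Zfp genes, chosen without regard to marks, H3K27ac covered 55.2% and 5.24% of the 5′ and 3′ stretches and H3K9me3 0.808% and 6.66%. In the 12775 profiled protein-coding genes H3K27ac covered 34.3% and 6.56% of them, and H3K9me3 between 0.589% and 1.38% of each stretch and flank. A higher share of H3K27ac at the 5′ end was thus not particular to Zfp genes. The last exon of Krüppel-type genes encodes the zinc-finger array, whose sequence repeats between genes; how reads that map to several places were handled is not given in the sources used here, so values for close copies within a cluster are uncertain.

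**Figure D5:**
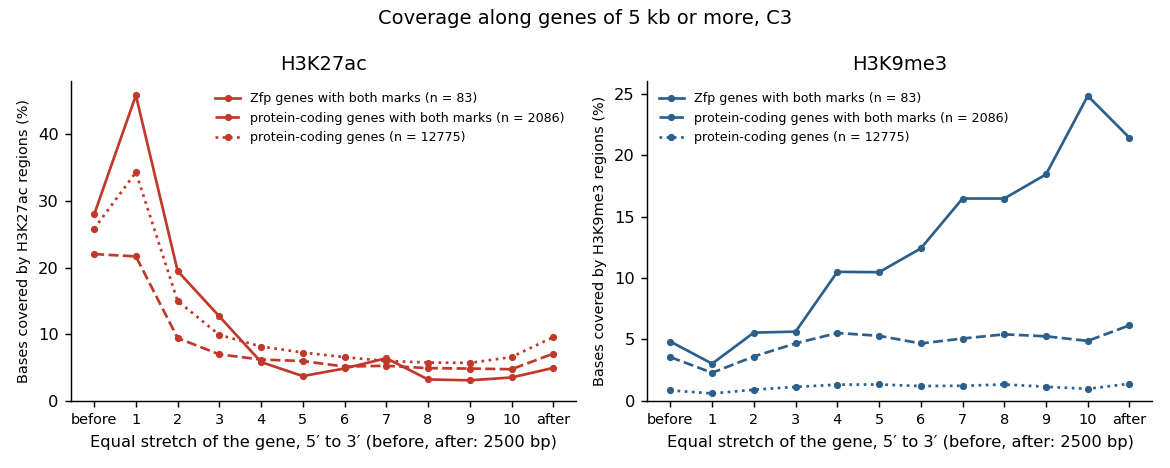
Mean share of bases covered by C3 regions (percent) along the profiled genes of 5 kb or more, from 2500 bp before the start to 2500 bp after the end. H3K27ac is on the left and H3K9me3 on the right. In the profiled Zfp genes with both marks H3K27ac is highest in the stretch at the 5′ end (45.9%) and H3K9me3 in the stretch at the 3′ end (24.9%).

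Imprinted genes, which are expressed from the copy of 1 parent, were the list of over 30 genes with the highest share of both marks. Of 43, 35 had H3K27ac (81.4%), 28 had H3K9me3 (65.1%) and 25 had both (58.1%), against 72.0%, 17.1% and 13.2% of protein-coding genes. Their median length, 30734 bp, is above the 17491 bp of protein-coding genes, and neighbours in a cluster share regions. Of the 34 with an annotated start site, H3K9me3 covered a start site in 8 (23.5%) and H3K27ac in 17 (50.0%), against 1.07% and 38.1% of genes in all. The 8 were Nnat, Mest, Peg3, Usp29, Plagl1, Commd1, Zrsr1 and Airn. Peg3 and Usp29, which start next to each other in opposite directions, shared an H3K9me3 region of 1826 bp (4.56- and 3.06-fold). The Plagl1 region was 4616 bp wide (5.31- and 4.66-fold), and the gene's H3K27ac covered 842 bases elsewhere. The Nnat region was 3982 bp wide (9.57- and 5.74-fold). Airn, the noncoding RNA that silences Igf2r, had 1603 bp over its start site (6.20- and 6.10-fold).

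Of the 25 imprinted genes with both marks, 13 had a stretch where the regions overlapped. Kcnq1, with the paternally expressed noncoding Kcnq1ot1 in its intron, had 7 H3K27ac regions over 20431 bases (12.9- and 11.7-fold) and 7 H3K9me3 regions over 18579 bases (10.6- and 7.32-fold) that shared no base. Snrpn had 11701 bases of H3K27ac and 5322 of H3K9me3, with 1 overlapping pair, and Gnas 12305 and 7739, with 2. H19 had no H3K27ac region and 507 bases of H3K9me3 (4.56- and 4.02-fold). Nap1l5, an intronless paternally expressed gene, likewise had no H3K27ac and 4054 bases of H3K9me3 (7.18- and 5.67-fold). At the Dlk1-Dio3 cluster, Dlk1, Meg3, Rian and Mirg had neither mark in C3, and Rtl1 had no H3K27ac and 1543 bases of H3K9me3 (5.82- and 4.05-fold). Meg3, a maternally expressed noncoding RNA, had 0 H3K27ac regions in C2 and 2 in OSKM. Antisense and nested genes such as Airn and Igf2r, or Nnat inside Blcap, cannot be told apart by these regions.

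The receptor and Skint families had more members with H3K9me3 than with H3K27ac. Of 1100 olfactory receptor genes 40 had H3K27ac (3.64%) and 77 H3K9me3 (7.0%), and of 352 vomeronasal receptor genes 24 (6.82%) and 72 (20.5%). Of protein-coding genes 72.0% and 17.1% had them, and of those under 10 kb 50.6% and 5.79%. Vmn2r60 had no H3K27ac and 15993 bases of H3K9me3 (13.6- and 10.5-fold), and Olfr784 none and 4466 (8.95- and 7.37-fold). Of 11 Skint genes, butyrophilin-like genes of the skin and thymus, 4 had H3K27ac and 7 H3K9me3, with 11670 bases of H3K9me3 at Skint5. The 93 cytochrome P450 genes gave 39 with H3K27ac, 32 with H3K9me3 and 14 with both. Within this family Cyp2c39 had 1664 bases of H3K27ac and 21222 of H3K9me3 (15.6- and 11.6-fold). The annotated extent of Cyp2c39, 222223 bp, contains Cyp2c38, which had the same H3K27ac bases and the same H3K9me3 enrichments. These regions cannot be assigned to either gene. Cyp11a1, the first enzyme of steroid synthesis, had 16585 bases of H3K27ac (21.6- and 9.17-fold) and 423 of H3K9me3. Of 39 Hox genes 22 had H3K27ac and none H3K9me3.

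Other families held members rich in either mark. Of 57 clustered protocadherins, neuronal adhesion genes whose variants share their 3′ exons, 33 had H3K27ac (57.9%), 24 H3K9me3 (42.1%) and 23 both (40.4%), against 72.0%, 17.1% and 13.2% of protein-coding genes. Pcdhga1 had 29 H3K27ac regions over 37040 bases and 387 bases of H3K9me3, while Pcdha1 had 906 bases of H3K27ac and 18201 of H3K9me3 (10.5- and 10.9-fold). Since extents of the variants overlap, these members share regions. The median length of the protocadherins was 90252 bp. Of protein-coding genes from 50 to 200 kb, 89.0% had H3K27ac, 33.5% H3K9me3 and 29.3% both. Among 42 collagen genes, with a median length of 110432 bp, 22 had H3K27ac (52.4%), 13 H3K9me3 (31.0%) and 9 both (21.4%), where 29.3% of protein-coding genes from 50 to 200 kb had both; Col18a1 and Col4a2, basement membrane collagens, had 27137 and 20481 bases of H3K27ac and no H3K9me3, and Col4a4 had no H3K27ac and 11259 bases of H3K9me3. Of 91 potassium channel genes 63 had H3K27ac (69.2%), 23 H3K9me3 (25.3%) and 21 both (23.1%); Kcnn2 had 3506 bases of H3K27ac and 16386 of H3K9me3. Of 26 germline genes 22 had H3K27ac (84.6%) and 6 H3K9me3 (23.1%), all 6 with both. Mov10l1, a helicase of the piRNA pathway, had 858 bases of H3K27ac and 9088 of H3K9me3 (11.7- and 9.03-fold), and Tex14, of germ cell bridges, 11995 and 5082.

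The marks shared few bases. H3K9me3 regions overlapped 3178 of the H3K27ac regions (4.46%), and H3K27ac regions overlapped 3112 of the H3K9me3 regions (9.47%), in 3381 pairs. A pair shared a median of 624 bp, and in 79.6% of pairs the shared stretch was at least 50% of the shorter region, so most were not contacts at an edge. In all 2.40 Mb carried both, which is 2.16% of the H3K27ac bases and 3.79% of the H3K9me3 bases. Of the whole span, H3K9me3 regions covered 2.57% and H3K27ac regions 4.50%, so the shared portions were only a little below these shares. Whether the marks avoid each other at single bases was not tested. Per library, 4.04% and 3.93% of the H3K27ac peaks were overlapped by H3K9me3 regions, against 9% and 7.30% of the H3K9me3 peaks by H3K27ac regions. The difference was -4.17 points (exact permutation p = 0.333), between marks with 71236 and 32862 regions. Without replicate 2 of H3K9me3, when every peak of replicate 1 counts as a region, 5617 H3K27ac regions were overlapped and the difference was -0.88 points; without replicate 2 of H3K27ac they were 4956 and -6.59, and with only peaks of at least 4-fold enrichment 1002 and -1.88.

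Places with both marks lay in genes about as seldom as H3K9me3 regions did. H3K27ac regions that H3K9me3 overlapped lay in a gene in 36.1% of cases, against 67.0% of the other H3K27ac regions, and the shared stretches themselves in 34.5%, beside 29.8% of all H3K9me3 regions. In all, 99 shared stretches (3.02%) were within 1 kb of a start site. The overlapped H3K27ac regions had a median width of 1018 bp and median enrichments of 5.89 and 4.28, against 1066 bp, 6.08 and 4.82 for the others. For H3K9me3 the same values were 1250 bp, 5.17 and 4.39 for overlapped regions and 1240 bp, 5.82 and 4.66 for the others. Away from each other, the median distance was 50247.5 bp from an H3K27ac region to H3K9me3 and 25872 bp from an H3K9me3 region to H3K27ac. In a population of cells, both marks on the same copy and each mark on separate copies or in separate cells cannot be told apart.

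Of the 8 pairs that shared most bases, 5 had no gene within 2500 bp. Of all regions, 35.7% of H3K9me3 and 73.8% of H3K27ac had a gene that near. The pair sharing most, 6524 bp on chromosome 10, had no gene within 2500 bp, with 5.41- and 3.79-fold H3K27ac and 6.56- and 5.24-fold H3K9me3. On chromosome 2 a stretch of 3801 bp, also with no gene near, had 21.4- and 8.18-fold H3K27ac and 7.77- and 4.98-fold H3K9me3. At Tmem267 on chromosome 13 a pair of stretches, 4090 and 3753 bp, had H3K27ac enrichments of only 2.22 to 2.63 and H3K9me3 enrichments of 2.53 and 2.71, while pileups were 222 to 308 fragments for H3K27ac and 330 and 281 for H3K9me3. The background implied there, pileup divided by enrichment, was 111 and 117 for H3K27ac and 130.5 for H3K9me3 in replicate 1. Over all regions the same quantity in replicate 1 had a median of 6.52 in overlapped and 7.06 in other H3K27ac regions, and of 7.31 in overlapped and 5.76 in other H3K9me3 regions. It exceeded 3 times the median of its library in 1.01% of overlapped and 0.217% of other H3K27ac regions in replicate 1, and in 1.32% of overlapped and 0.807% of other H3K9me3 regions. The part of background and of the shared input in the overlap was not tested.

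Against the other lines, the share of overlapped H3K27ac peaks in C3 lay between them, and that of overlapped H3K9me3 peaks lay above C2 and spanned one of the OSKM libraries. H3K9me3 regions overlapped 4.04% and 3.93% of the H3K27ac peaks in C3, against 2.78% and 1.802% in C2 and 8.53% and 8.33% in OSKM, a difference of -1.38 points between C3 and the other 4 libraries (exact permutation p = 0.733, the smallest possible being 0.133). H3K27ac regions overlapped 9% and 7.30% of the H3K9me3 peaks in C3, against 2.86% and 3.52% in C2 and 8.90% and 9.32% in OSKM, a difference of 2.00 points (exact permutation p = 0.533). Input libraries were shared by C2 and OSKM and separate for C3, so input and line cannot be told apart. Of the shared stretches of C3, 19.4% carried both marks in C2 and 57.2% in OSKM. H3K27ac, with or without H3K9me3, was found at 26.8% of them in C2 and 60.8% in OSKM, and H3K9me3 at 68.8% and 93.2%.

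The repressive regions of C3 recurred in the other lines more often than the active ones. The shares were not tested. Of the H3K27ac regions 56.7% were met by a C2 region of the same mark and 66.3% by an OSKM region, against 72.4% and 93.6% of the H3K9me3 regions. In both other lines lay 49.4% of the H3K27ac regions and 71.7% of the H3K9me3 regions, and in C3 alone 26.4% and 5.64%. C3 had 71236 H3K27ac regions, more than the 50848 of C2 and the 60792 of OSKM. It had 32862 H3K9me3 regions, fewer than the 34205 of C2 and the 50946 of OSKM. The part of these numbers in the recurrence of either mark was not tested. H3K27ac regions of all lines had median enrichments of 8.81 and 6.35, against 4.34 and 3.75 for those in C3 alone, and for H3K9me3 they were 6.50 and 5.07 against 3.93 and 3.85. In 10.2% of the H3K27ac regions of C3 and 7.13% of its H3K9me3 regions, OSKM held the other mark, and in 5.11% and 2.78% C2 did.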

How the data were processed

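H3K27ac and H3K9me3 were measured by ChIP-seq in 12 libraries of 3 iPS lines. Per the submitters' processing notes, CASAVA 1.8.2, Bowtie2 2.2.5, SAMtools 1.3 and the mm10 genome were used. MACS 2.1.0.20150731 called narrow peaks library by library, each against 1 input, at a q-value of 0.01 per the file headers, with at most 1 tag per position. The deposited pileup is a signal (fragments at the summit), the deposited -log10 p-value and -log10 q-value give significance, and fold enrichment, the deposited ratio, compares the summit with its local background. Tag numbers are the authors' own counts in the headers. The other deposited tables and the HA peaks were not used.

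From these files, peaks of both libraries of a mark that share at least 1 bp were merged, on chromosomes 1 to 19. RefSeq extents and start sites of GRCm38.p6, the build of mm10, gave distances; a gene carried a mark within 2500 bp. Libraries were compared with two-sided exact permutation tests; counts of regions and genes have no test. Interval steps were tested on simulated data (7221 checks, 0 mismatches). Computation used SciPy 1.17.1, pandas 2.3.3 and NumPy 2.4.6 under Python 3.11.15, and plots matplotlib 3.10.9. Regions named are the 8 widest and 8 strongest per mark, the 8 longest runs and the 8 pairs with most shared bases, and genes are those of a list with most bases of a mark or of both, plus label checks (Actb, Gapdh, Pou5f1, Nanog, Sox2, the Zfp cluster and imprinted genes). Members and lists were chosen with earlier results of these data known; start-site genes, single members of a list with H3K9me3 and the promoters printed were chosen after their values were seen. Alternatives covered thresholds, joining, overlap, windows, chromosomes, predicted genes, equal peak numbers, a replicate block and leaving out each library. The main tests did not pair libraries by replicate number, and the replicate block did. Libraries of the 2 marks with the same number shared an input. Deviations over 2394 bins correlated at -0.037 between marks, which does not show that the libraries are unpaired.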

Additional observations from a re-analysis of the deposited data

How the results depend on the processing

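Of 147 values under 15 alternative settings, 122 kept their direction or stayed within 1.5 times the reported count, 15 counts moved further and 10 differences changed sign or, in 1 case, came to 0. Differences in gene overlap (34.5 to 36.6 points over libraries left out), in distance over 50 kb and in overlap with the other mark kept their sign under every setting tried, which with a smallest p of 0.333 is no sign of significance. The width difference was -38.5 bp at a -log10 q of at least 5, 0 bp without chromosome 8, -80.5 bp at equal peak numbers and -174.5 to 336 bp without single libraries. The enrichment difference was -0.0587 at equal peak numbers and -0.757 to 1.03 without single libraries. The difference in overlapped H3K27ac peaks between C3 and the other lines was 0.0200 points when 50% of the shorter interval had to overlap and -1.94 to 1.52 without single C3 libraries. At 4-fold enrichment or more there were 43813 H3K27ac and 21030 H3K9me3 regions, 1002 overlapped H3K27ac regions and 2462 genes with both marks; joining peaks within 1000 bp left 44129 H3K27ac regions. A window of 10000 bp gave 12486 genes with H3K9me3 and 7305 with both, and without predicted genes 3708 had H3K9me3. With 1 library left out, and every peak of the other taken as a region, H3K27ac regions numbered 71236 to 107457, H3K9me3 regions 32862 to 84462, overlapped H3K27ac regions 3103 to 5617, genes with H3K9me3 6925 to 11403 and genes with both 4110 to 6528; the highest values for H3K9me3 came without its replicate 2. These counts fall or rise by construction, as fewer peaks pass or a second library is no longer asked for; for the reversed differences the cause was not tested. With the replicate block the differences were the same, 36.1 points for gene overlap, at a sign-flip p = 0.5, the smallest it allows (exact), and no call changed. Depth limits the weaker peaks, and H3K9me3 replicate 2 held fewer tags (34550520) than replicate 1 (44426255).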

Other observations

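Counts of developmental genes with H3K27ac differed between the lines. Of 20 mesoderm genes 18 had an H3K27ac region, against 7 in C2 and 12 in OSKM, and of 20 neuroectoderm genes 14, against 3 and 11. The 39 Hox genes gave 22 in C3, 5 in C2 and 14 in OSKM. Of 20665 protein-coding genes 14884 (72.0%) had one in C3, against 13346 in C2 and 14192 in OSKM, so the neuroectoderm (70.0%) and Hox (56.4%) shares in C3 are not above that of protein-coding genes. No test was made, and C3 had more H3K27ac regions in all, 71236 against 50848 in C2 and 60792 in OSKM. The mesoderm regions were short, with a median of 947.5 bases a gene, where pluripotency genes had 8983. Eomes, a T-box factor, had 4 regions over 6566 bases (11.2- and 7.68-fold), and Gsc, a homeobox gene of the organizer, 1 of 678 bases (2.90- and 3.75-fold) that neither other line had. Olig2, a basic helix-loop-helix factor of the nervous system, had 6 regions over 7163 bases (9.21- and 7.18-fold), none in C2 and 7 in OSKM. Hoxc13 had 5 over 5802 bases (12.1- and 9.21-fold), none in C2 and 4 in OSKM. H3K9me3 was found at 1 of the mesoderm genes, Wnt3, at 2 of the neuroectoderm genes, Map2 and Six3, and at none of the Hox genes.

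Among small RNA genes, 266 of 391 transfer RNA genes (68.0%) had an H3K27ac region within 2500 bp and 13 (3.33%) an H3K9me3 region. Of 1136 microRNA genes 368 (32.4%) and 24 (2.11%) did, beside 49.7% and 14.7% of all genes. The median length was 73 bp for transfer RNA genes and 80 bp for microRNA genes, against 6277 bp for all genes.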
